A study of Mus musculus with 6 samples.

Results

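The transcripts described here are those of 9 genes of bone morphogenetic protein (BMP) signalling in the mouse hair follicle. They comprise the ligand genes Bmp2, Bmp4, Bmp6, Bmp7 and Gdf10, the secreted antagonist genes Grem1, Fst and Nog, and Bambi, which encodes a membrane pseudoreceptor. The members were all probe sets that the platform annotation pairs with 1 of these symbols, which gave 12 of the 45101 probe sets in the table and 9 of 18193 genes. Bmp7 had 3 probe sets, Fst had 2 and each of the other genes had 1. A probe set is a group of short probes whose signals are summarised into 1 value for a transcript.

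BMPs are secreted dimers of the transforming growth factor beta superfamily. They bind type I and type II receptor kinases, which phosphorylate Smad1, Smad5 and Smad9, and these enter the nucleus with Smad4 and induce targets such as the Id genes. Gremlin 1 (Grem1) and noggin (Nog) bind BMPs outside the cell and keep them from their receptors, follistatin (Fst) binds activins and, less tightly, some BMPs, and Bambi resembles a type I receptor without its kinase. In the follicle, BMP signalling is known to hold stem cells quiescent, and antagonists from the stem cell surroundings relieve it at the start of hair growth. In the matrix, BMP signalling is known to be needed for differentiation of the hair shaft.

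RNA was measured on Affymetrix arrays, with 2 arrays in each of 3 groups of cells sorted from the back skin of untreated female CD-1 mice. Quiescent hair follicle stem cells (qHF-SC) were sorted with integrin α6 and CD34 at postnatal days 52 to 60. At postnatal days 28 to 30, GFP and integrin α6 were combined with CD34 to sort activated stem cells (aHF-SC), and with ephrinB1 to sort transient-amplifying matrix cells (HF-TAC), the dividing progeny at the follicle base. The labels give neither the source of the GFP nor the side of each gate. The qHF-SC group differs from the others in age and sort, and aHF-SC from HF-TAC in the sort, so these cannot be told apart from cell state. Whether replicates are separate animals is not stated, and the p-values rest on a spread between arrays that may be technical only. The 3 comparisons share arrays pairwise and are not independent of each other.

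Array medians of intensity ranged from 22.8 to 23.9, and an intensity under its array's median is called dim below. The cell labels were checked against their markers. Of 8 bulge stem cell markers 8 were lower in HF-TAC than in aHF-SC, among them Cd34 and Lgr5, and of 6 matrix markers 4 were higher, Shh, Lef1, Msx2 and Msx1. Summed intensities of 6 endothelial markers (75.5 to 108) and 6 immune markers (134 to 194) stayed low on all 6 arrays. Of these only the endothelial marker Tek was called. It was higher in aHF-SC (24.5 and 31.6) than in qHF-SC (8.28 and 7.81, limma adjusted p = 0.0045) and HF-TAC (9.49 and 7.72, limma adjusted p = 0.0015). Those of 7 melanocyte markers were 1801 to 1969 in qHF-SC, 451 to 532 in aHF-SC and 618 to 960 in HF-TAC. The qHF-SC sums were nearly all Mitf (1581 and 1801), which was called lower in HF-TAC than in qHF-SC, while Kit, Dct, Mlana and Tyr were called higher there.

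In the step from quiescent to activated stem cells, Bmp6 rose, and Grem1, Fst and Bmp7 fell. In the step from activated stem cells to matrix cells, Bmp4, Bmp7 and Bambi rose, while Gdf10, Grem1 and Bmp6 fell. Matrix cells against quiescent stem cells had Bmp4 and Bambi higher and Grem1, Gdf10, Fst, Nog and Bmp2 lower. A gene is counted through its probe set with the highest mean, and called at a limma adjusted p under 0.05. In aHF-SC against qHF-SC 4 of 9 members were called, where 6.3% of all genes were. For HF-TAC against aHF-SC the count was 6 of 9, beside 16.3% of all genes, and for HF-TAC against qHF-SC 7 of 9, beside 25.7%. By direction the background was 3.08% higher and 3.22% lower, 8.25% and 8.06%, and 13.1% and 12.6% of genes in the same order of comparisons. Values of the compared groups were without overlap for 8, 8 and 9 of the 9 members, where this held for 50.8%, 54.3% and 61.2% of all genes. The members' median log2 differences were -0.37, -0.61 and -0.96, beside 0.00, -0.01 and -0.01 over all genes. The members were chosen with earlier results of these data known, and all genes include dim ones. These shares and medians therefore do not measure how unusual the members are. In sorted populations, fewer cells of a type and less RNA per cell cannot be told apart.

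**Figure D1:**
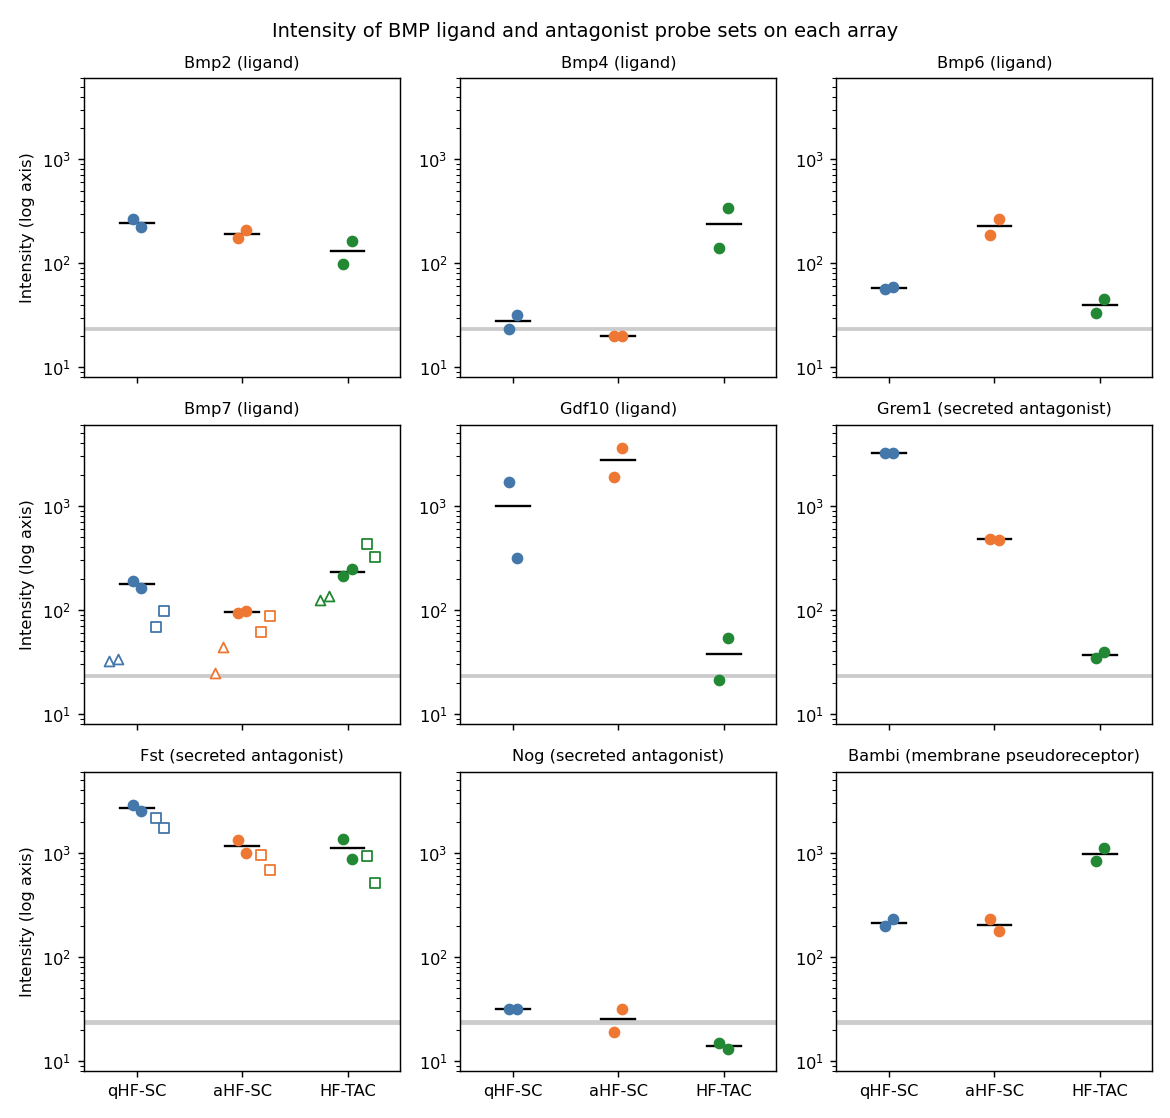
Intensity (log axis) of each member on each array of qHF-SC, aHF-SC and HF-TAC; filled circles are the probe set that stands for the gene, open squares and triangles its other probe sets, black lines the group means and the grey band the range of the 6 array medians. Grem1 steps down from 3257 and 3226 in qHF-SC to 34.8 and 39.3 in HF-TAC, Bmp6 is highest on both aHF-SC arrays, and Bmp4 and Bambi are highest on both HF-TAC arrays.

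The promoters of the members with the steepest differences are printed because these genes differed in their order over the states. Grem1 was highest in quiescent stem cells, Bmp6 in activated ones and Bmp4 in matrix cells, while Gdf10 was high in both stem cell groups. RefSeq sequences of build GRCm38.p6 were matched for 4 of the 9 members. Each line gives the 250 bases before the transcription start in the direction of transcription. Capitals mark matches to CAGAC, the Smad box, or to GGCGCC, a GC-rich element that BMP Smads are known to bind, searched on both strands. The Grem1 window is chr2:113758649-113758898, minus strand. That of Bmp6 is chr13:38345466-38345715, plus strand. The Gdf10 window lies at chr14:33923337-33923586, plus strand, and that of Bmp4 at chr14:46390670-46390919, minus strand.
Grem1: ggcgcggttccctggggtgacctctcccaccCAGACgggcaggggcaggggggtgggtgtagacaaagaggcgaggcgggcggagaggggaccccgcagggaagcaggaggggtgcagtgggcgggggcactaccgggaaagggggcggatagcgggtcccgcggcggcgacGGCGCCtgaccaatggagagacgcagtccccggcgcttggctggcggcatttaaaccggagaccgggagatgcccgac
Bmp6: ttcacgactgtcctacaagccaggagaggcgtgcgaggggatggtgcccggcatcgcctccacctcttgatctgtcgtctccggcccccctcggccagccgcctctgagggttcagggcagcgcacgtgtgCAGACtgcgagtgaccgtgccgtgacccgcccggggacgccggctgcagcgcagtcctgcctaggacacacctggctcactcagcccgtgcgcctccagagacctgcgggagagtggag
Gdf10: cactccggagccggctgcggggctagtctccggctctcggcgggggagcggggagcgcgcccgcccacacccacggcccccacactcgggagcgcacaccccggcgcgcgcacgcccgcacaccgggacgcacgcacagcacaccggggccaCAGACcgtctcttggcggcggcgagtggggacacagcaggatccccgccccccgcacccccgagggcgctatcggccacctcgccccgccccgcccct
Bmp4: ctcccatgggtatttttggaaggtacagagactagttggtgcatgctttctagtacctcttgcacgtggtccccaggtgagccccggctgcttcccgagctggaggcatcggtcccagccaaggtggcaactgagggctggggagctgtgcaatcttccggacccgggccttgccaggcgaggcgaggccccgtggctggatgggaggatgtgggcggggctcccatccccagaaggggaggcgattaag

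Grem1 had 1 match to GGCGCC, which starts 78 bases before the transcription start, and the other windows had 0; 9.59% of 32851 mouse promoter windows of the same length hold these letters. CAGAC was found once in each of Grem1, Bmp6 and Gdf10 and not in Bmp4, against 42.2% of all windows. The GC box GGGCGG, a motif of housekeeping and developmental promoters, was found 4 times before Gdf10, 3 times before Grem1 and once before each of Bmp6 and Bmp4, and 32.7% of all windows hold it. CACGTG, an E-box, was found once each before Bmp6 and Bmp4, against 6.02% of all windows, and TATAAA in none of the 4, against 12.4%. The 2 GC boxes nearest the Gdf10 start share 1 base, and no other matches overlapped. The windows were 63.2% to 78.8% G or C, over a median of 52.4% for all windows, and more G and C makes the GC-rich motifs likelier by letters alone.

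**Figure D2:**
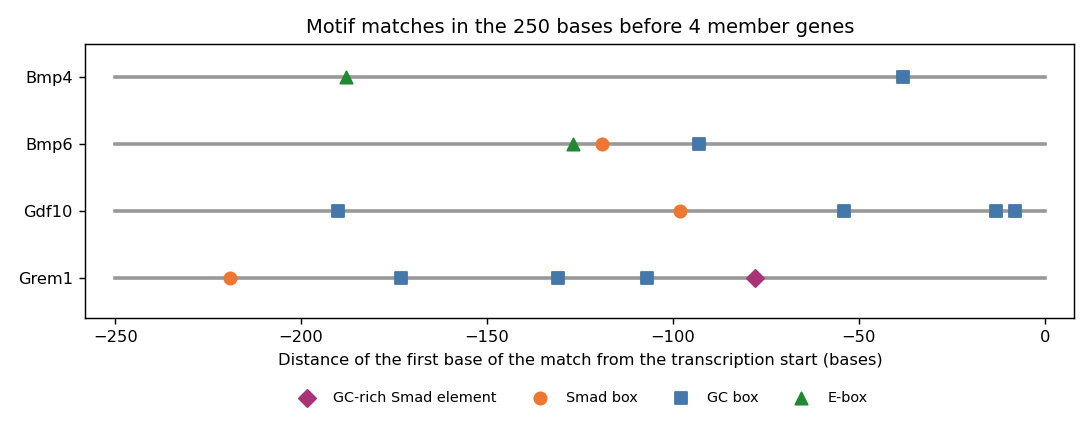
Motif matches in the 250 bases before the start of Bmp4, Bmp6, Gdf10 and Grem1; the horizontal axis is the distance of the match's first base from the transcription start, in bases, and the symbols are the motifs. Grem1 alone of these 4 windows holds GGCGCC, at 78 bases, and the GC box is in all 4.

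Among the antagonists, Grem1 had the largest difference of any member. It was measured at 3257 and 3226 in qHF-SC, 486 and 469 in aHF-SC and 34.8 and 39.3 in HF-TAC. The groups were far apart next to their replicates, which differed by at most 1.13-fold. Grem1 fell 6.79-fold from qHF-SC to aHF-SC (log2 difference -2.76 ± 0.15 SE, limma adjusted p = 0.00043) and a further 12.9-fold to HF-TAC (-3.69 ± 0.15, limma adjusted p = 8.71e-05). Between qHF-SC and HF-TAC it differed 87.7-fold (-6.45 ± 0.15, limma adjusted p = 7.66e-06). These 3 calls held in each alternative in which its single probe set was measured. Bulge markers moved in the same direction from aHF-SC to HF-TAC (8 of 8 lower), whereas from qHF-SC to aHF-SC only Cd34, a sorting marker, was called lower among them. Nfatc1, Lhx2 and Col17a1 were also lower without overlap of arrays but missed the threshold (limma adjusted p = 0.0593, 0.474 and 0.446). Tcf7l1 was higher without overlap and missed it too (0.0619). The part of the sorting gates in the Grem1 differences was not tested.

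Fst was high in qHF-SC, at 2887 and 2537, and lower elsewhere, with 1329 and 1004 in aHF-SC against 1370 and 867 in HF-TAC. The qHF-SC arrays stood above all others, and the aHF-SC and HF-TAC arrays overlapped. Fst fell 2.34-fold from qHF-SC to aHF-SC (-1.23 ± 0.25, limma adjusted p = 0.0347) and was 2.48-fold lower in HF-TAC than in qHF-SC (-1.31 ± 0.25, adjusted p = 0.00793). The difference between HF-TAC and aHF-SC was -0.08 (95% interval -0.66 to 0.49, limma adjusted p = 0.921). Its second probe set stood at 2158 and 1751, 959 and 685, and 935 and 516 in the same groups, and differed by -1.26 in aHF-SC against qHF-SC (limma adjusted p = 0.0569), -1.48 in HF-TAC against qHF-SC (0.0106) and -0.22 in HF-TAC against aHF-SC (0.79). The call between aHF-SC and qHF-SC was lost when either qHF-SC array (limma adjusted p = 0.166 and 0.161 for replicates 1 and 2) or either aHF-SC array (0.0791 and 0.171) was left out, and with log2(value + 16) (0.0963). That between HF-TAC and qHF-SC ended without qHF-SC replicate 1 (0.0608).

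Nog was near the median of the arrays, at 31.7 and 31.8 in qHF-SC, 19.0 and 31.6 in aHF-SC and 14.8 and 13.0 in HF-TAC. Both HF-TAC arrays and 1 aHF-SC array were dim, so that the size of its differences is uncertain. It was 2.29-fold lower in HF-TAC than in qHF-SC (-1.19 ± 0.24, limma adjusted p = 0.0102). The difference was -0.82 ± 0.24 against aHF-SC (adjusted p = 0.0691) and -0.37 ± 0.24 between aHF-SC and qHF-SC (limma adjusted p = 0.501). The call ended without qHF-SC replicate 1 (limma adjusted p = 0.0609) or 2 (0.0648) and without HF-TAC replicate 2 (0.0557). Without aHF-SC replicate 1, HF-TAC against aHF-SC passed for Nog (-1.19, limma adjusted p = 0.0155), as it did with scaling to the 75th percentile (0.0386).

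Bambi, which dampens BMP and TGF-beta signals at the receptor, was at 196 and 232 in qHF-SC, 229 and 177 in aHF-SC and 842 and 1116 in HF-TAC. The stem cell groups overlapped, and both HF-TAC arrays stood above them. Bambi rose 4.81-fold from aHF-SC to HF-TAC (2.27 ± 0.21 SE, limma adjusted p = 0.000807) and was 4.55-fold higher there than in qHF-SC (2.19 ± 0.21, limma adjusted p = 0.00038). Between the stem cell groups it differed by -0.08 (95% interval -0.56 to 0.40, limma adjusted p = 0.911).

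**Figure D3:**
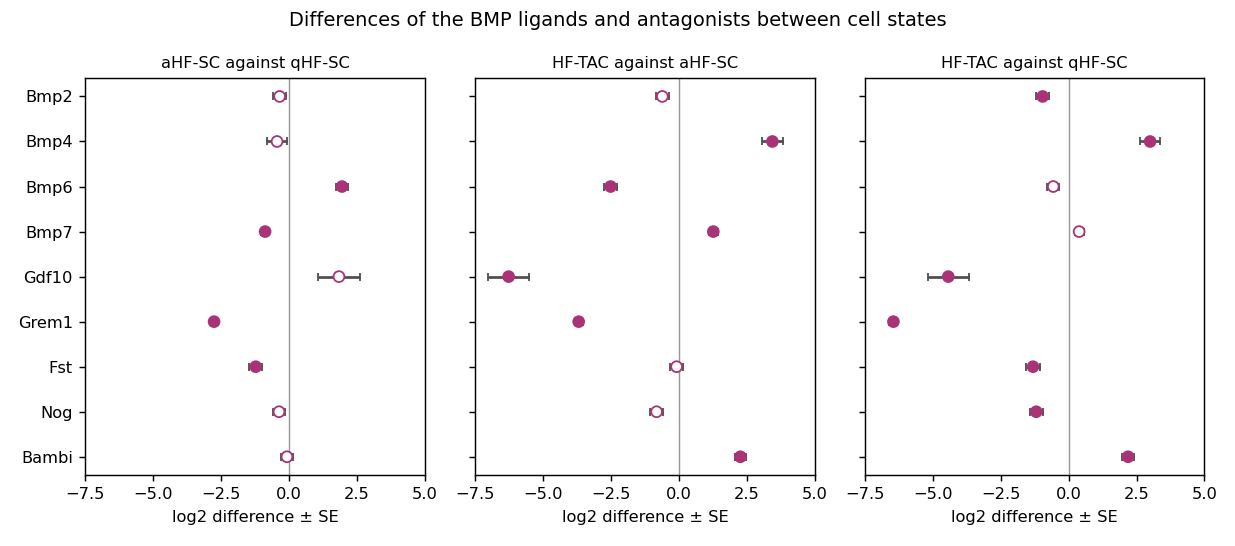
Log2 differences ± SE of the 9 members in the 3 comparisons, with filled points past a limma adjusted p of 0.05. The secreted antagonists Grem1, Fst and Nog lie at or below 0 in each comparison, with Grem1 at -6.45 in HF-TAC against qHF-SC, while Bmp4 (3.0) and Bambi (2.19) lie above 0 there.

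Bmp6 and Gdf10 were the ligands with their highest values in activated stem cells, and of these only the rise of Bmp6 from qHF-SC passed the threshold. Bmp6 encodes a BMP known from the bulge and its inner layer of keratin 6 cells. It was at 56.4 and 59.3 in qHF-SC, 186 and 268 in aHF-SC and 33.5 and 45.4 in HF-TAC. Both aHF-SC arrays lay above all 4 others. It rose 3.86-fold from qHF-SC to aHF-SC (1.95 ± 0.22 SE, limma adjusted p = 0.00631) and fell 5.72-fold from there to HF-TAC (-2.52 ± 0.22, limma adjusted p = 0.000772). The arrays of HF-TAC and qHF-SC did not overlap, but the difference of -0.57 (95% interval -1.09 to -0.04) missed the threshold (limma adjusted p = 0.132). Without qHF-SC replicate 2 the rise missed it too (1.98, limma adjusted p = 0.0641). The 4 inner bulge and companion layer markers summed to 10853 to 12739 in qHF-SC, 5979 to 10265 in aHF-SC and 4301 to 6805 in HF-TAC, and 0 of 4 were called in aHF-SC against qHF-SC by limma (0 at an unadjusted p under 0.05). Krt6a made up most of these sums (10489 and 12387, 5677 and 9861, and 3911 and 5972 in the 3 groups). Krt75 went the other way, at 90.2 and 99.0, 148 and 159, and 356 and 788, and was called higher in HF-TAC than in either stem cell group. The 6 smooth muscle and pericyte markers summed to 187 to 213 in qHF-SC, 2282 to 4538 in aHF-SC and 365 to 511 in HF-TAC. Acta2 (2892 and 1428 in aHF-SC) and Tagln (1540 and 746) carried the aHF-SC sums and were called higher there than in qHF-SC. Cnn1 and Pdgfrb did not follow, with means of 42.9 and 40.1 in aHF-SC and 51.1 and 42.8 in qHF-SC, and Myh11 and Rgs5 were dim on all 6 arrays. The part of these cells in the Bmp6 result was not tested.

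Gdf10, which encodes BMP3b, a divergent member of the family, was high in both stem cell groups, highest on both aHF-SC arrays, and low in matrix cells. Its values were 1696 and 318 in qHF-SC, 1894 and 3636 in aHF-SC and 21.4 and 54.0 in HF-TAC. Every stem cell array stood above both HF-TAC arrays, of which 1 was dim. Gdf10 fell 77.2-fold from aHF-SC to HF-TAC (-6.27 ± 0.76 SE, limma adjusted p = 0.00222) and was 21.6-fold lower in HF-TAC than in qHF-SC (-4.43 ± 0.76, limma adjusted p = 0.00524). Both calls held with each array left out, but the sizes moved. Against qHF-SC the difference was -3.23 without qHF-SC replicate 1 and -5.64 without replicate 2, and -3.77 and -5.10 without HF-TAC replicates 1 and 2. Against aHF-SC it was -5.60 and -6.94 without the same HF-TAC arrays. The 5.33-fold gap between the qHF-SC replicates was among the widest on these arrays, with 15 of 18193 genes (0.0825%) at least as far apart in that group. Between aHF-SC and qHF-SC the difference of 1.84 had a 95% interval from 0.07 to 3.60 and missed the threshold (limma adjusted p = 0.256); it was 3.04 without qHF-SC replicate 1 and 0.63 without replicate 2. Inhbb, an activin subunit gene, and Id4, an Id gene, were likewise higher on qHF-SC replicate 1 (1077 and 3174) than on replicate 2 (292 and 1706). Other Id genes did not follow. On qHF-SC replicates 1 and 2, Id1 was at 2531.5 and 3289.1, Id2 at 5651 and 7170.5, and Id3 at 3214.3 and 3109.7.

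Bmp4, a ligand well known from hair follicle matrix, hair shaft precursors and dermal papilla, was low in the stem cells and higher in matrix cells. It was at 23.5 and 31.8 in qHF-SC and at 20.1 on both aHF-SC arrays, which were dim, and at 140 and 342 in HF-TAC. Equal values on the replicates of a group occurred for 84 of 45101 probe sets in aHF-SC. Both HF-TAC arrays lay above all stem cell arrays. Bmp4 rose 10.9-fold from aHF-SC to HF-TAC (3.44 ± 0.37 SE, limma adjusted p = 0.0015) and was 8.0-fold higher in HF-TAC than in qHF-SC (3.0 ± 0.37, limma adjusted p = 0.00127). The replicates in HF-TAC were 2.44-fold apart. The differences were 4.09 and 3.64 without HF-TAC replicate 1 and 2.80 and 2.35 without replicate 2, and the first was 2.71 with log2(value + 16). The stem cell groups differed by -0.44 (95% interval -1.31 to 0.43, limma adjusted p = 0.641).

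Cells of the dermal papilla, which adjoins the matrix, are known to make Bmp4, and their markers were examined beside it. The 7 dermal papilla markers summed to 188 to 242 in qHF-SC, 201 to 266 in aHF-SC and 319 to 391 in HF-TAC, with Crabp1 the largest part in HF-TAC (212 and 142). Of these, Prom1 was called higher in HF-TAC than in either stem cell group and Vcan higher than in qHF-SC, while Sox2 and Corin were dim on all 6 arrays. The 8 dermal fibroblast markers summed to 443 to 546 in qHF-SC, 395 to 669 in aHF-SC and 3824 to 6344 in HF-TAC. Dcn, which encodes the proteoglycan decorin, made up 3646 and 5927 of the HF-TAC sums and was the only one called higher there, as it was in aHF-SC against qHF-SC, and Pdgfra, Lum, Dpt and Twist2 were dim on all 6 arrays. The part of these cells in the Bmp4 result was not tested. Inner root sheath markers, of lineages that arise from the matrix, also rose from aHF-SC to HF-TAC, with 5 of 6 called. The 6 summed to 477 to 619 in qHF-SC, 797 to 1101 in aHF-SC and 5776 to 11445 in HF-TAC. The 4 hair shaft markers measured summed to 158 to 209, 293 to 380 and 3846.5 to 9180 in the same groups, and 2 of 4 were called higher in HF-TAC than in aHF-SC. In aHF-SC against qHF-SC, 3 of the 6 and 1 of the 4 were called higher, at sums far under those of HF-TAC. The part of these lineages in the Bmp4 result was not tested.

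Bmp7, a ligand of the BMP5 to BMP7 subgroup, was higher in matrix cells than in activated stem cells on each of its 3 probe sets. The probe set with the highest mean stood at 191 and 164 in qHF-SC, 94.3 and 98.1 in aHF-SC and 214 and 251 in HF-TAC. On it Bmp7 fell 1.84-fold from qHF-SC to aHF-SC (-0.88 ± 0.16 SE, limma adjusted p = 0.0253) and rose 2.41-fold to HF-TAC (1.27 ± 0.16, limma adjusted p = 0.00266). The second probe set was at 69.2 and 98.6 in qHF-SC, 62.2 and 88.3 in aHF-SC and 429 and 321 in HF-TAC, and the last at 32.5 and 33.8, 24.9 and 44.2, and 125 and 137. Their qHF-SC and aHF-SC arrays overlapped. The probe sets disagreed on qHF-SC: against it, HF-TAC differed by 2.17 and 1.98 on the second and last (limma adjusted p = 0.00097 and 0.00147) and by 0.38 on the first (limma adjusted p = 0.153). Between aHF-SC and qHF-SC the second and last differed by -0.16 and -0.00 (limma adjusted p = 0.841 and 0.999). With the mean of the 3 probe sets the differences were -0.35 in aHF-SC against qHF-SC (limma adjusted p = 0.341), 1.86 in HF-TAC against aHF-SC (0.00126) and 1.51 in HF-TAC against qHF-SC (0.00123). The fall from qHF-SC to aHF-SC also lost its call when either qHF-SC array (limma adjusted p = 0.123 and 0.103) or either aHF-SC array (0.117 and 0.101) was left out. Markers of differentiated keratinocytes were lowest in aHF-SC, where of the Bmp7 probe sets only the first was called lower than in qHF-SC. The 6 markers summed to 15193 to 15997 in qHF-SC, 4782 to 5526 in aHF-SC and 13449 to 22807 in HF-TAC, mostly Krt10 and Krtdap. Of these, 3 of 6 fell from qHF-SC to aHF-SC and 4 of 6 were called higher in HF-TAC than in aHF-SC. Their part in the Bmp7 result was not tested.

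Bmp2, the close relative of Bmp4, spanned the narrowest range of group means among the 5 ligands. It was at 270 and 223 in qHF-SC, 177 and 210 in aHF-SC and 97.9 and 163 in HF-TAC, with no overlap between neighbouring groups. Bmp2 and Bmp4 were thus ordered in opposite ways between qHF-SC and HF-TAC, where Bmp2 was 1.94-fold lower (-0.96 ± 0.25 SE, limma adjusted p = 0.0318). The single steps missed the threshold, at -0.35 ± 0.25 from qHF-SC to aHF-SC (limma adjusted p = 0.564) and -0.61 ± 0.25 from there to HF-TAC (limma adjusted p = 0.199). The call ended without qHF-SC replicate 1 (limma adjusted p = 0.171) or 2 (0.0856), without HF-TAC replicate 1 (0.125) and with log2(value + 16) (0.0766). Without HF-TAC replicate 2 the step from aHF-SC passed (-0.98, limma adjusted p = 0.0428).

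**Figure D4:**
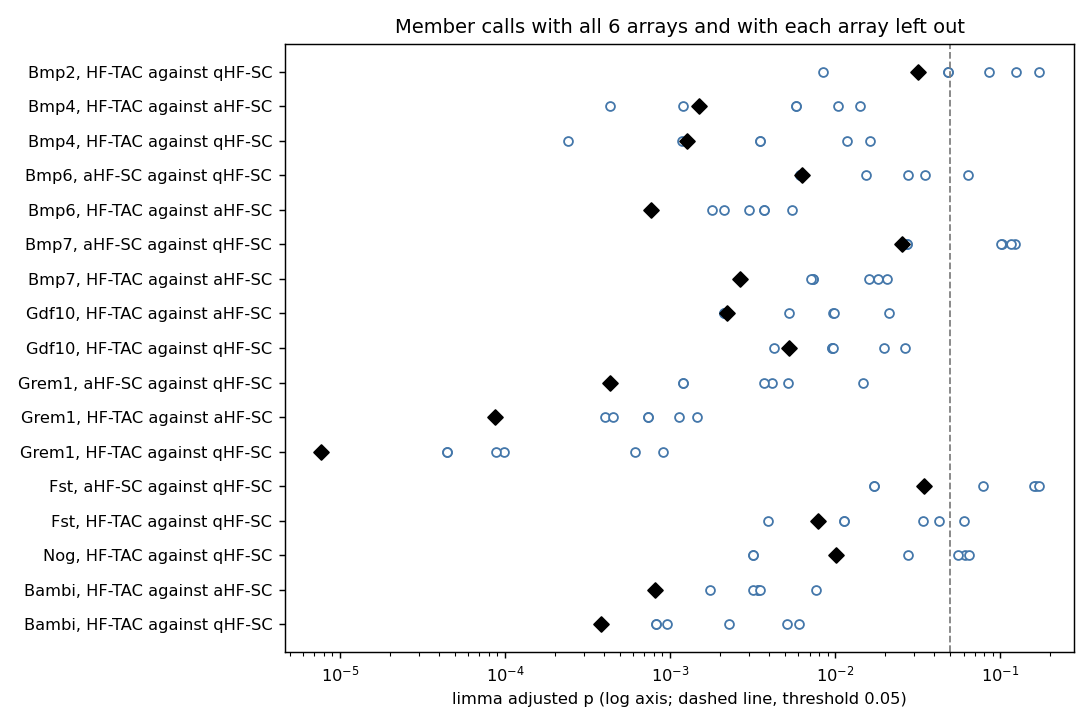
Limma adjusted p (log axis) of the 17 called member differences with all 6 arrays (black diamonds) and with each array left out in turn (open circles); the dashed line is the threshold of 0.05. For 11 of the 17, every circle lies left of the line, among them all differences of Grem1, Bmp4, Gdf10 and Bambi that were called.

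As a description of which genes had the most similar profiles, the 3 with the highest correlation to each member over the 6 arrays were taken from 3510 genes whose group means spanned at least 1 on the log2 scale. With 6 arrays in 3 groups, such a correlation mostly follows the group means. Grem1 was closest to Atrnl1, Dleu2 and Itgav, the integrin αv gene (r = 0.9983 each, n = 6). Itgav stood at 2926 and 2937 in qHF-SC, 1624 and 1587 in aHF-SC and 826 and 815 in HF-TAC, the same order over a narrower range. Bmp6 was closest to Flna, the filamin A gene (r = 0.9924), Gm6556 (0.9902) and Ephb3, an Eph receptor gene (0.9889). Ephb3 had 469 and 379 in qHF-SC, 1017 and 1167 in aHF-SC and 284 and 354 in HF-TAC.

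Gdf10 was closest to Snx18 (r = 0.9948), Procr, the protein C receptor gene (0.9941), and Lrrc4 (0.9932). Bmp4 was closest to the lipoxygenase gene Alox12 (r = 0.9968), Gna14 (0.9941) and Spata5 (0.9939), and Bambi to Mipep (0.9990), 2700099C18Rik (0.9986) and Fancd2, a DNA repair gene (0.9983). For Bmp7 they were Prnp, the prion protein gene (r = 0.9772), Nampt (0.9669) and Acot9 (0.9657), and for Bmp2 D16Ertd472e (0.9808), Lfng, a modifier of Notch (0.9791), and Trpc1 (0.9786). Fst was closest to Smim10l1 (r = 0.9884), Rnf13 (0.9877) and Ankrd12 (0.9862), and Nog to Hoxa7 (0.9939), Zfp963 (0.9936) and Ovol2 (0.9920). No member was among the 3 closest of another, although Bmp4 and Bambi correlated at r = 0.983 and Bmp6 and Bmp7 at r = -0.949 over the 6 arrays.

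The rest of the pathway was followed through a list of 53 other genes, of which 49 had a probe set of their own. In aHF-SC against qHF-SC 1 of 49 rose and 4 fell. From aHF-SC to HF-TAC 1 rose and 12 fell, and in HF-TAC against qHF-SC 1 was higher and 14 lower, beside the shares of all genes given above. The median log2 differences were -0.09, -0.25 and -0.31, with 0.00, -0.01 and -0.01 for all genes. The other antagonists and modulators held most of the calls, with 4, 7 and 8 of their 15 genes in the 3 comparisons in this order. Of all genes, 6.3%, 16.3% and 25.7% were called. This was also the largest role, and its counts were not tested against those of the other roles. Several of the other ligands, such as Bmp5, Bmp15 and Gdf5, were dim on all 6 arrays.

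**Figure D5:**
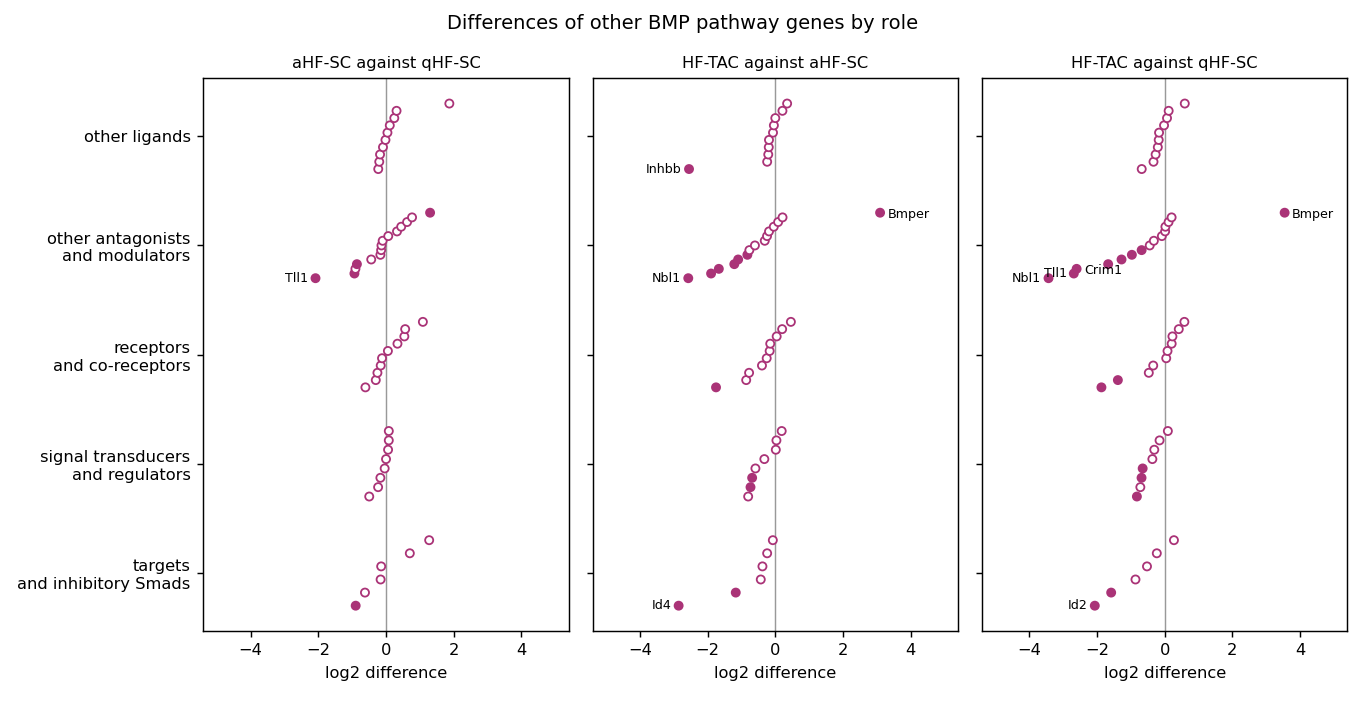
Log2 differences of 49 other BMP pathway genes by role (1 point a gene, filled past a limma adjusted p of 0.05) in the 3 comparisons; called genes beyond 2 are named. Nbl1 and Crim1 fall with Tll1 toward HF-TAC, and Bmper is the one gene called higher there.

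Nbl1, a secreted BMP antagonist of the DAN family, followed the order of Grem1 at 922 and 970, 455 and 597, and 92.2 and 83.2 in qHF-SC, aHF-SC and HF-TAC. It fell 1.81-fold to aHF-SC (limma adjusted p = 0.0371) and 5.95-fold from there to HF-TAC (limma adjusted p = 0.000279). The first of these calls was lost when either qHF-SC array (limma adjusted p = 0.127 and 0.203) or either aHF-SC array (0.162 and 0.0537) was left out, and with log2(value + 16) (0.0643). Crim1, a membrane protein that tethers BMPs, had the same order, at 1027 and 846, 505 and 472, and 169 and 140, and was 6.08-fold lower in HF-TAC than in qHF-SC (limma adjusted p = 9.04e-05). Its fall of 1.91-fold to aHF-SC (limma adjusted p = 0.0262) was lost when either qHF-SC array (0.127 and 0.0967) or either aHF-SC array (0.0997 and 0.128) was left out, when its probe sets were averaged (0.0603) and with log2(value + 16) (0.0526).

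Tll1 and Bmp1 encode related proteases that cleave the BMP antagonist chordin. Tll1 was at 64.1 and 39.8 in qHF-SC and dim on the other 4 arrays, 4.24-fold lower in aHF-SC (limma adjusted p = 0.00711; 0.0531 with log2(value + 16)) and 6.44-fold lower in HF-TAC (limma adjusted p = 0.000355). With that pseudocount the log2 differences were -1.26 and -1.49, against -2.08 and -2.69. Bmp1 moved the other way, from 172 and 99.0 in qHF-SC to 286 and 363 in aHF-SC, a rise of 2.47-fold (limma adjusted p = 0.0358). The rise missed the threshold without qHF-SC replicate 2 (limma adjusted p = 0.154), without either aHF-SC array (0.0926 and 0.174), with its probe sets averaged (0.0731) and with log2(value + 16) (0.0985).

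Bmper, a secreted modulator that binds BMPs, was dim on the 4 stem cell arrays (7.70 to 14.1) and at 75.4 and 150 in HF-TAC. It rose 8.55-fold from aHF-SC (limma adjusted p = 0.00136) and was 11.7-fold higher than in qHF-SC (limma adjusted p = 0.000347). With log2(value + 16) the log2 differences were 2.11 and 2.29, against 3.10 and 3.54. Fstl1, a follistatin-like gene, stood at 757 and 732 in qHF-SC, 1280 and 1027 in aHF-SC and 228 and 414 in HF-TAC, and fell 3.73-fold from aHF-SC (limma adjusted p = 0.00424). Inhbb, at 1757 and 2397 in aHF-SC and 468 and 262 in HF-TAC, was the one called gene of 10 other ligands (5.86-fold lower, limma adjusted p = 0.0246). The Inhbb call ended without aHF-SC replicate 1 (limma adjusted p = 0.074) or 2 (0.14), without HF-TAC replicate 2 (0.125) and with log2(value + 16) (0.0978), and averaging its probe sets gave -1.60, against -2.55. Without qHF-SC replicate 1 Inhbb was called higher in aHF-SC than in qHF-SC (2.81, limma adjusted p = 0.0223), and without qHF-SC replicate 2 lower in HF-TAC than in qHF-SC (-1.62, limma adjusted p = 0.0434).

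Receptors take up the ligands at the cell surface. Of 10 receptor and co-receptor genes 0 were called in aHF-SC against qHF-SC by limma (3 at an unadjusted p under 0.05), 1 fell from aHF-SC to HF-TAC and 2 were lower in HF-TAC than in qHF-SC, where 6.3%, 16.3% and 25.7% of all genes were called; these counts were not tested against the other roles. Bmpr1a, the main type I BMP receptor of skin epithelium, was at 902 and 702, 1034 and 979, and 738 and 962, with log2 differences of 0.34, -0.26 and 0.08 in the 3 comparisons (limma adjusted p = 0.441, 0.559 and 0.842). One of its 5 other probe sets was called higher in aHF-SC (0.87, limma adjusted p = 0.0371) and in HF-TAC (0.85, limma adjusted p = 0.0124) than in qHF-SC. Bmpr2, the type II receptor, differed by -0.30, -0.17 and -0.47 (limma adjusted p = 0.531, 0.761 and 0.169), and 1 of its 2 other probe sets was called the other way in HF-TAC against qHF-SC (0.79, limma adjusted p = 0.0396). Bmpr1b was dim on all 6 arrays.

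Acvrl1, the type I receptor ALK1, known from endothelium, was 3.37-fold lower in HF-TAC than in aHF-SC and 3.66-fold lower than in qHF-SC (limma adjusted p = 0.00632 and 0.00269), and dim on both HF-TAC arrays. The first call ended without aHF-SC replicate 2 (-1.59) and with log2(value + 16) (-1.07, limma adjusted p = 0.0615), against -1.75. The second difference was -1.17 with that pseudocount, against -1.87. It was -0.90 without probe sets named _a_at, _s_at or _x_at, where another probe set stood for Acvrl1. Acvr2a, a type II receptor of activins and BMPs, was 2.61-fold lower in HF-TAC than in qHF-SC (limma adjusted p = 0.00298) on its highest probe set. Averaging its probe sets gave a log2 difference of -0.44 (limma adjusted p = 0.214), against -1.38.

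Of 8 transducers and their regulators, Smad1 and Smurf1 fell from aHF-SC to HF-TAC, where 16.3% of all genes were called. These with Skil were lower in HF-TAC than in qHF-SC, where 25.7% of all genes were called. Smad1, a BMP effector, was 1.61-fold lower in both comparisons (limma adjusted p = 0.0462 and 0.0299). The Smad1 calls ended without either HF-TAC array (limma adjusted p = 0.0756 and 0.207 against aHF-SC, 0.0525 and 0.147 against qHF-SC), for the first without aHF-SC replicate 1 (0.133) or 2 (0.196), and for the second without qHF-SC replicate 1 (0.161). They also ended with probe sets named _a_at, _s_at or _x_at left out (limma adjusted p = 0.0562 and 0.101), and the second with probe sets averaged (0.0621). The 2 other Smad1 probe sets passed in neither comparison (limma adjusted p = 0.0795 and 0.0532 against aHF-SC, 0.3 and 0.0943 against qHF-SC). Smurf1, a ubiquitin ligase for BMP Smads, was 1.66-fold and 1.57-fold lower (limma adjusted p = 0.0439 and 0.0447), and Skil, a Smad corepressor, 1.77-fold (limma adjusted p = 0.0289). Smad5 was not called on its highest probe set. Another of its probe sets was called higher than in qHF-SC, by 1.31 in aHF-SC (limma adjusted p = 0.0167) and 1.98 in HF-TAC (limma adjusted p = 0.000645). The Smurf1 call against aHF-SC ended without any of the arrays except aHF-SC replicate 1 (limma adjusted p from 0.076 to 0.22), and that against qHF-SC without any qHF-SC or HF-TAC array (0.109 to 0.199). Averaging its probe sets ended both (0.0967 and 0.176). The Skil call ended without qHF-SC replicate 1 (limma adjusted p = 0.165) or HF-TAC replicate 1 (0.0751) or 2 (0.119), and averaging its probe sets gave -0.27 (0.344), against -0.82.

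Among targets of the pathway, Id2 fell at each step, at 5651 and 7170 in qHF-SC, 3016 and 3881 in aHF-SC and 1383 and 1673 in HF-TAC, and was 4.19-fold lower in HF-TAC than in qHF-SC (limma adjusted p = 0.000432). The step to aHF-SC (1.86-fold, limma adjusted p = 0.0486) was lost whichever array was left out (0.0897 and 0.265 for qHF-SC replicates 1 and 2, 0.215 and 0.0862 for aHF-SC, 0.0519 for each of HF-TAC) and with log2(value + 16) (0.0966). The step from aHF-SC to HF-TAC (2.25-fold, limma adjusted p = 0.00917) ended without aHF-SC replicate 2 (-0.99, against -1.17). With probe sets named _a_at, _s_at or _x_at left out, another probe set of lower values stood for Id2. On it the 2 steps were -1.71 (limma adjusted p = 0.00567) and -0.10 (0.906), with 216 and 301, 78.2 and 78.0, and 62.9 and 84.5 in the 3 groups. The second bright Id2 probe set, left out with the first, stood at 4918 and 6192, 2113 and 3017, and 921 and 1371. Id4, at 3174 and 1706, 4777 and 6647, and 606 and 996, fell 7.25-fold from aHF-SC to HF-TAC (limma adjusted p = 0.00223). It was 2.99-fold lower in HF-TAC than in qHF-SC (limma adjusted p = 0.0153; 0.0921 without qHF-SC replicate 1 and 0.0747 without HF-TAC replicate 1 and 0.0618 with log2(value + 16)). Id1, Id3, Smad6 and Smad7, the other targets and feedback inhibitors, passed in none of the comparisons, with Id1 at -0.86 ± 0.26 SE in HF-TAC against qHF-SC (limma adjusted p = 0.0536). That Id1 difference passed in 8 of 17 alternatives, among them the replicate block (0.00901), 75th percentile scaling (0.0227), an intensity trend in the prior (0.0274), repeated quantile normalisation (0.0301) and leaving out either aHF-SC array (0.038).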

How the data were processed

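RMA is named without a version in the submitters' processing notes for these arrays; RMA usually subtracts background, quantile-normalises the arrays and summarises probes on the log2 scale. The deposited values are intensities on a linear scale, per the values themselves. Not given in the sources used here: software, chip definition and the step back to linear values. Quantile normalisation assumes alike distributions of RNA, and such summaries compress dim signals. No detection calls were used.

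Intensities of 45037 probe sets (64 controls left out) were put on the log2 scale and fitted in 1 model of 3 group means over 6 arrays with limma 3.58.1 (R 4.3.3). Each probe set had 3 residual degrees of freedom and the prior added 4.64. Tests were two-sided, and Benjamini-Hochberg adjustment ran over all 45037 probe sets within each comparison, with a threshold of 0.05. Of the probe sets, 34945 carried 1 gene symbol, 932 several and 9160 none, and each of 18193 genes was counted through its probe set with the highest mean. Intervals at 95% come from the same fit; SE is the standard error of a difference. The fit was also run on data simulated from its own model, which checks the code and not its assumptions on these arrays. Named pathway genes were up to 4 of each role per comparison past the threshold, with the largest differences, and Bmpr1a, Bmpr1b, Bmpr2, Id1, Id2, Id3, Smad6 and Smad7. The members and lists were chosen with earlier results of these data known. Precision is limited by the 2 arrays of each group. Alternatives covered normalisation, a filter on dim probe sets, log2(value + 16), the choice of probe set, the arrays in the fit, the replicate number as a block, array weights, an intensity trend and leaving out each array.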

Additional observations from a re-analysis of the deposited data

How the results depend on the processing

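The 17 called member differences kept their direction in each of the 18 alternatives in which they were measured, and 11 kept their call in each. With an array left out, the number of members called was 1 to 4 in aHF-SC against qHF-SC, 6 to 7 in HF-TAC against aHF-SC and 4 to 7 in HF-TAC against qHF-SC, against 4, 6 and 7 with all arrays. For the other pathway genes it was 1 to 4, 6 to 11 and 9 to 16, against 5, 13 and 15. Their count in aHF-SC against qHF-SC was 9 with scaling to the 75th percentile, 3 with probe sets averaged per gene and 0 with log2(value + 16) by limma (13 at an unadjusted p under 0.05), where limma called 7 in HF-TAC against aHF-SC. The differences near 0 changed sign when an array was left out: Fst in HF-TAC against aHF-SC ranged from -0.41 to 0.25 and Bambi in aHF-SC against qHF-SC from -0.26 to 0.11. The cause was not tested. With the replicate number as a block, the counts of members called were 4, 6 and 7 and those of other pathway genes 5, 15 and 17; the labels do not say that a number marks a shared animal or day, and deviations of same-numbered arrays from their group means correlated at 0.0615, 0.0838 and -0.127 across genes. Grem1 has 1 probe set, whose name ends in _a_at, so it was not measured in the alternative without names in _a_at, _s_at or _x_at. In that alternative the names alone decided which probe sets were left out. Nog, as dim, was left out by the filter on dim probe sets. A probe set that is dim in a group gives an uncertain fold there, as for Bmp4 and Nog. Each group held 2 arrays, and the smaller differences are not detectable at this size.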
